A study of Mus musculus with 2 samples.

Results

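The genes described here are the transcripts of the mitochondrial genome that the gene table names, together with nuclear genes that copy, transcribe and switch on that genome. They were chosen by name: 3 rows for mitochondrially encoded genes (Cox2, Cytb and Atpase6) and 7 rows for nuclear regulators (Tfam, Tfb2m, Polrmt, Polg, Ppargc1a, Ppargc1b and Nrf1), which makes 10 of 31252 gene rows. All 10 averaged 10 or more counts, the minimum set here for a fold change. RNA was taken from ventral midbrain at an age of 2 months, in mice on an incipient congenic C57BL/6 background, with 1 library labelled Ctrl (Slc6a3-Cre) and 1 labelled OE (Slc6a3-Cre; CAG-S-COUP-TFII). Both genotypes thus carry Cre under the dopamine transporter gene, which is used in DA neurons, and the OE genotype adds an allele from which Cre turns on the orphan nuclear receptor COUP-TFII. The study's methods breed Ctrl and OE littermates from parents that both carry floxed Tfam, the mother on both copies, so a pup of that cross inherits at least 1 floxed Tfam allele beside Cre. The labels of the libraries name no Tfam allele, and whether these mice carried one was not analysed here.

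Total counts were 16984336 for the library labelled Ctrl and 21326632 for that labelled OE. With 1 library per group there is no replicate and no test. Each log2 difference below is taken as labelled OE over labelled Ctrl, after scaling with edgeR's TMM method and adding 0.5 normalized counts, and its 95% interval is an exact Clopper-Pearson interval on the split of both counts. These intervals cover counting error only and compare libraries, not conditions. A gene is called past the threshold when its log2 difference exceeds 0.2 in either direction, the size used in the study's methods. Nr2f2, the gene for COUP-TFII, runs opposite to its labels, with 637 counts where the label is Ctrl and 377 where it is OE, a log2 difference of -1.07 (interval -1.26 to -0.88). Every direction below therefore refers to the labels and not to the amount of COUP-TFII. The paper reports its rise of COUP-TFII mRNA in isolated DA neurons, whereas these counts come from ventral midbrain tissue with other cells. The part of tissue makeup in the Nr2f2 value was not tested.

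The mitochondrial genome is a small circle present in many copies per cell. It encodes core subunits of the respiratory chain and of ATP synthase, along with the rRNAs and tRNAs needed to translate them, and both of its strands are transcribed as long precursors that are then cut into separate RNAs. Everything else is imported: the mitochondrial RNA polymerase POLRMT starts transcription with the factors TFAM and TFB2M, TFAM also packages the DNA, and the polymerase POLG copies it. In the nucleus, the transcription factor NRF1 and the coactivators PGC-1α and PGC-1β (Ppargc1a and Ppargc1b) switch on genes for mitochondrial proteins. DA neurons of the SNpc have long axons and steady pacemaker activity, and loss of Tfam from them underlies the MitoPark mouse, a model of PD.

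The 3 mitochondrially encoded rows differ in how well their reads can be placed, because the nuclear genome holds copies of mitochondrial DNA. Positions are those of GENCODE in GRCm38, the assembly also called mm10, which the submitters' processing notes name. Cox2 (mt-Co2, subunit 2 of cytochrome c oxidase, complex IV) lies at chrM:7013-7696, Atpase6 (mt-Atp6, subunit a of ATP synthase, complex V) at chrM:7927-8607, and Cytb (mt-Cytb, cytochrome b of complex III) at chrM:14145-15288, all on the + strand and each a single exon. The annotated pseudogene Gm28661 on chromosome 1 matched mt-Co2 at 681 of 681 aligned bases, and Gm10925 beside it matched mt-Atp6 at 678 of 678. A copy of cytochrome b on chromosome 4, Gm11410, matched mt-Cytb at 1061 of 1143 bases. The stretches below show the contrast, with capitals for bases at which the mitochondrial gene and its nuclear copy differ.
mt-Co2, chrM:7043-7132, + strand: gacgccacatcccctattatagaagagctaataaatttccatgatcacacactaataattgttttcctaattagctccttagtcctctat
Gm28661, chr1:24615446-24615535, - strand: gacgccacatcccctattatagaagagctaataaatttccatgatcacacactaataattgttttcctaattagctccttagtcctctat
mt-Cytb, chrM:14175-14264, + strand: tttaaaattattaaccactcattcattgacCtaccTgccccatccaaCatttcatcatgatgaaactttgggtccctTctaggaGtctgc
Gm11410, chr4:80004019-80004108, + strand: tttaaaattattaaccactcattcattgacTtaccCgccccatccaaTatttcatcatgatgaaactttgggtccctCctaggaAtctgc

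Reads were 50 bp long. Of all windows of 50 bases in the mitochondrial gene, 99.5% of those of mt-Co2 and 99.5% of those of mt-Atp6 were also present in the aligned nuclear copy, against 0 of 1095 for mt-Cytb. The pseudogene copies could thus have taken or given reads for Cox2 and Atpase6, and a single read of Cytb has at least 1 base that separates it from Gm11410. The gene table has no row named Gm28661, Gm10925 or Gm11410. Whether these copies took or gave reads therefore cannot be seen from the counts. How the authors' pipeline shared such reads is not given in the sources used here. Of the nuclear copies found, only Gm10222 has a row under its own name. GENCODE annotates it as a pseudogene at chr1:24612407-24612700, its 294 bases all match mt-Nd4l, a subunit gene of complex I, and it held 187154 counts in the library labelled Ctrl against 241354 in that labelled OE. Its log2 difference was 0.054, within the range of the mitochondrially encoded rows. Since all its bases match, the counts of Gm10222 cannot be told from reads of mt-Nd4l by sequence. A second limit applies to Atpase6, since the reading frames of mt-Atp8 and mt-Atp6 share 43 bases at chrM:7927-7969 and are carried by the same RNA. That shared stretch, with the start codon of mt-Atp6 in capitals, is shown here.
mt-Atp8 and mt-Atp6 overlap: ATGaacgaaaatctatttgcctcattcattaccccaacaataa

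Cox2 must also be kept apart from Ptgs2, the inducible prostaglandin synthase that is often called COX-2. Ptgs2 has a row of its own, with 20 and 38 counts, far below the row named Cox2.

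The 3 mitochondrially encoded rows were slightly more abundant in the library labelled OE, and by unequal amounts. Cox2 had 174079 counts in the library labelled Ctrl against 233228 in that labelled OE, which is 7.83% more after scaling (log2 0.11, interval 0.100 to 0.12). Cytb had 254272 and 334993 counts, 6.04% more (0.085, interval 0.077 to 0.092). Atpase6 had 237467 and 302335 counts, 2.47% more (0.035, interval 0.027 to 0.043). At this depth all 3 intervals lay above 0, and none of the 3 rows passed log2 0.2. All gene rows tested give the background: 17.9% of the 15246 genes tested were higher by more than log2 0.2 and 16.6% lower, 15.8% had an interval above 0, and the median over all genes was 0.005. An interval as narrow as that of Cox2 follows from its count, and says nothing on how far 2 mice of one genotype would differ.

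By rank, Cytb, Atpase6 and Cox2 were the 2nd, 3rd and 6th most abundant rows in both libraries. Together they held 3.92% of all counts in the library labelled Ctrl (Clopper-Pearson interval 3.91% to 3.93%) against 4.08% in that labelled OE (4.07% to 4.09%), a difference of 0.162 percentage points. Cytb alone held 1.497% and 1.571%, Atpase6 1.398% and 1.418%, and Cox2 1.025% and 1.094%. When the Gm10222 row was added, a choice made after its sequence match was seen, the shares were 5.02% and 5.21%. Whether the rows DQ539915 and AK018753, at ranks 1 and 4, hold mitochondrial reads was not analysed here.

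Ratios between mitochondrially encoded rows need no scaling between libraries. There were 0.685 counts of Cox2 per count of Cytb in the library labelled Ctrl against 0.696 in that labelled OE, a log2 difference of 0.024 (Woolf interval 0.013 to 0.036). Atpase6 per Cytb went from 0.934 to 0.903 (-0.049, interval -0.060 to -0.039). Cox2 per Atpase6 went from 0.733 to 0.771 (0.074, interval 0.062 to 0.085). The ratios between these rows therefore differed between the libraries by more than counting error, although by less than 0.1 on the log2 scale. Atpase6 was the row that lagged behind Cox2 and Cytb. The Woolf intervals cover counting error only, and not how reads shared with nuclear copies were placed. The part of read placement in these differences was not tested.

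Levels of different genes were compared per length, as counts per kilobase of the longest coding transcript per 1000000 counts. On this scale Atpase6 came first, with 20500 in the library labelled Ctrl against 20800 in that labelled OE, ahead of Cox2 with 15000 and 16000 and Cytb with 13100 and 13700. The order was the same in both libraries. Per length, Cox2 stood 1660-fold above Tfam in the library labelled Ctrl and 1710-fold above it in that labelled OE. Among the nuclear regulators the levels were Ppargc1a 11.3 and 12.2, Tfb2m 9.74 and 10.5, Tfam 9.04 and 9.36, Polrmt 6.66 in both, Polg 5.25 and 4.97, Nrf1 5.04 and 4.78, and Ppargc1b 1.32 and 1.49. This order was also shared by the libraries. Polg stood 1.04-fold above Nrf1 in both, with counting intervals of 0.91 to 1.19 and 0.919 to 1.18. Tfb2m stood 1.08-fold (0.951 to 1.22) and 1.13-fold (1.01 to 1.25) above Tfam. The order of Polg and Nrf1 was thus within counting error, and that of Tfb2m and Tfam was so in the library labelled Ctrl. These intervals do not cover the choice of transcript length. In counts without length, Tfam stood above Tfb2m, with 640 against 405 in the library labelled Ctrl and 832 against 551 in that labelled OE.

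**Figure D1:**
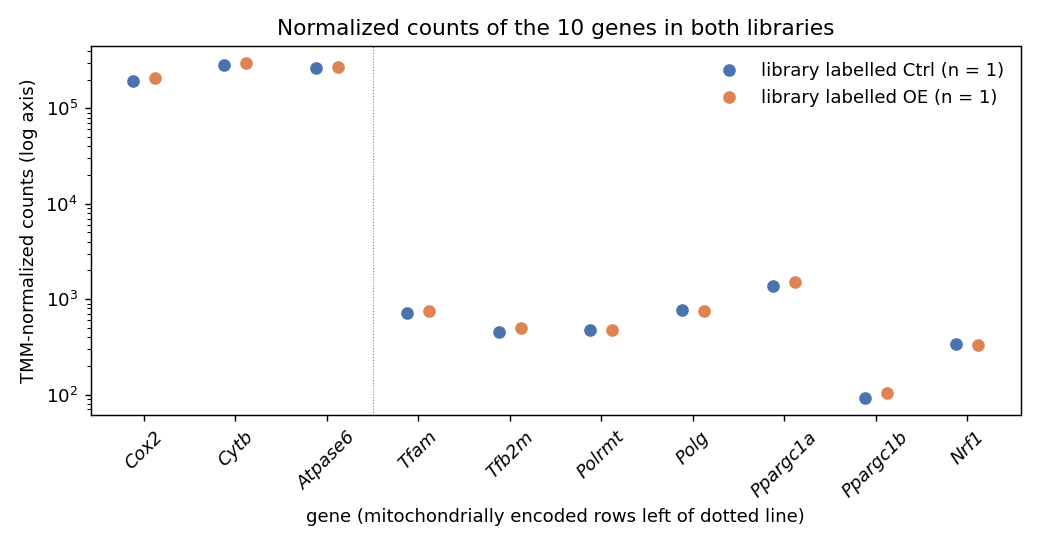
TMM-normalized counts (log axis) of the 10 genes in the library labelled Ctrl (blue, n = 1) and the library labelled OE (orange, n = 1). The 3 mitochondrially encoded rows lie between 194039 and 300533 normalized counts, far above the nuclear regulators, and both points of a gene lie at nearly the same height.

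None of the 7 nuclear regulators passed log2 0.2 in either direction, where 17.9% and 16.6% of all genes did, and their log2 differences ranged from -0.065 to 0.19 with a median of 0.065. Among the factors that start mitochondrial transcription, Tfam (chr10:71225464-71238280, - strand) had 640 counts in the library labelled Ctrl against 832 in that labelled OE, or 713.4 and 746.4 normalized counts, a log2 difference of 0.065 (interval -0.085 to 0.22). Gene counts do not separate transcripts of a floxed and recombined Tfam allele from others, and a loss limited to DA neurons would be diluted by the other cells of the tissue. Tfb2m (chr1:179528055-179546267, - strand), whose product melts the promoter for the polymerase, had 405 and 551 counts (0.13, interval -0.057 to 0.32). Polrmt (chr10:79736123-79746581, - strand), the polymerase itself, had 425 and 533 counts (0.013, interval -0.17 to 0.20). For these 3 genes a difference between the libraries was not detectable at this depth, and Polrmt was the closest to equal of all 10 genes.

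Polg (chr7:79446231-79466362, - strand), the catalytic subunit of the polymerase that replicates mitochondrial DNA, had 699 counts in the library labelled Ctrl against 830 in that labelled OE. After scaling the change was -4.43% (log2 -0.065, interval -0.21 to 0.082). Nrf1 (chr6:30047988-30153458, + strand) encodes nuclear respiratory factor 1, not the stress factor Nfe2l1 that shares the abbreviation, and had 307 and 365 counts (-0.063, interval -0.29 to 0.16). Polg and Nrf1 were the only members with a value below 0, and both intervals held 0. The other 8 of the 10 genes were above 0 (Polrmt was at -0.002 when scaled by total counts), as were 51% of all genes tested. An interval above 0 was found for 4 of the 10, beside 15.8% of all. The 3 mitochondrially encoded rows are among these 4, and their intervals are narrow because their counts are high.

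Of the coactivators, Ppargc1a (chr5:51454250-51567726, - strand), the better known inducer of mitochondrial genes, had 1246 counts in the library labelled Ctrl against 1684 in that labelled OE. It was 8.77% higher in the library labelled OE (0.12, interval 0.015 to 0.23), and was the only nuclear regulator with an interval that did not hold 0. Ppargc1b (chr18:61298136-61400431, - strand), its less abundant relative, had 82 and 116 counts. Its log2 difference of 0.19 was the largest of the 10 genes, and its interval, from -0.23 to 0.61, was the widest. Per length, Ppargc1a stood 8.59-fold above Ppargc1b in the library labelled Ctrl and 8.21-fold in that labelled OE.

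**Figure D2:**
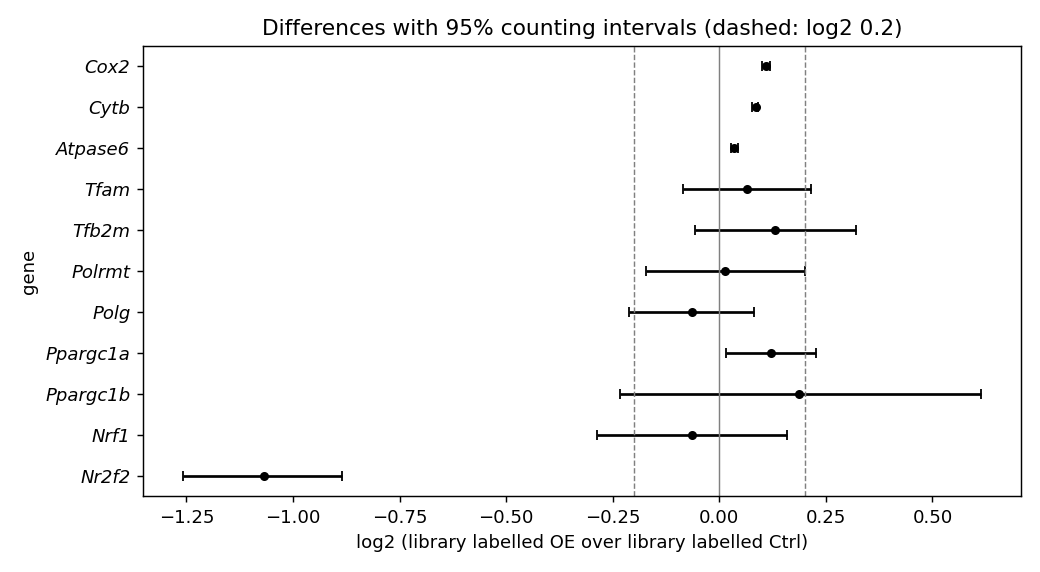
Log2 difference of the 10 genes and of Nr2f2, library labelled OE over library labelled Ctrl, with bars for 95% counting intervals and dashed lines at log2 0.2 on either side of 0. Points of all 10 genes lie between the dashed lines, from -0.065 for Polg to 0.19 for Ppargc1b, and only Nr2f2 lies beyond them.

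Several of the nuclear regulators are textbook targets of NRF1 and of the ETS factor GABP, so the start regions of these genes in RefSeq (GRCm38.p6), 250 bases before to 50 after the annotated start, were searched on both strands for GCATGCGC, part of the NRF1 motif, and CCGGAAGT, the ETS core bound by GABP. GCATGCGC was found at Tfb2m and Polrmt, and in 2.71% of all 32851 start regions. CCGGAAGT was found at Tfam and Polg, and in 3.89% of all start regions. Start regions of Ppargc1a and of Nrf1, for which RefSeq gives 2, held neither. RefSeq and GENCODE starts differ for Tfam and Polg, and the matches of both lie inside the GENCODE gene spans given above. The short motifs were chosen with these sequences in view, and a match is a description of letters and not a measured binding site. The 30 bases around each match are given with the matched letters in capitals, read along the gene's own strand.
Tfam, chr10:71238073-71238102, - strand: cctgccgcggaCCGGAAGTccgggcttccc
Polg, chr7:79466293-79466322, - strand: gaggacctcacCCGGAAGTccctctgcacc
Tfb2m, chr1:179546244-179546273, - strand: taggtcgttcGCATGCGCcattcgtaatgt
Polrmt, chr10:79746696-79746725, - strand: agagtatttctGCGCATGCtctcttgccgc

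Tfam and Polg, with the ETS letters, had log2 differences of 0.065 and -0.065, and Tfb2m and Polrmt, with the NRF1 letters, had 0.13 and 0.013. The intervals of all of these held 0, so no direction can be read from them. Whether the letters go with the values was not tested. A search for AGGTCA repeated after 1 free base, which COUP-TF receptors can bind, found no match in the start regions of these genes, and 0.0396% of all start regions held one. TGACGTCA, the cAMP response element, had no match either and was in 1.79% of all.

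Subunits of one respiratory complex come from both genomes, which allows each mitochondrially encoded row to be set beside its nuclear-encoded partners. In complex IV the median of 15 nuclear-encoded subunits was 0.21, against 0.11 for Cox2, and 11 of the 15 lay above Cox2. In complex III the median of 9 subunits was 0.19, against 0.085 for Cytb, and 7 of 9 lay above it. In complex V the median of 16 subunits was 0.19, against 0.035 for Atpase6, and 16 of 16 lay above it. The mitochondrially encoded row minus the median of its partners was -0.100 in complex IV, -0.107 in complex III and -0.150 in complex V on the log2 scale, and these values did not move with the scaling, which cancels. In summed counts there were 6.52 counts of Cox2 per count of nuclear-encoded complex IV subunits in the library labelled Ctrl against 6.01 in that labelled OE. The same ratio was 14.2 and 13.6 for Cytb in complex III, and 3.70 and 3.43 for Atpase6 in complex V.

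Past log2 0.2, 8 of the 15 nuclear-encoded subunits of complex IV (53.3%) were higher in the library labelled OE and 2 (13.3%) lower, 4 of 9 of complex III (44.4%) were higher and 0 lower, and 5 of 16 of complex V (31.2%) were higher and 0 lower, beside 17.9% higher and 16.6% lower over all genes. In complex IV the highest with at least 100 counts were Cox8a, with 2080 and 3643 counts (0.50, interval 0.42 to 0.57), and Cox5a, with 1842 and 3006 counts (0.39, interval 0.31 to 0.48). Cox4i1, the subunit that most tissues use to regulate the enzyme, was close to equal with 6083 and 7743 counts (0.035, interval -0.014 to 0.084). Cox6a2, the isoform of heart and muscle, was lower with 21 and 4 counts (-2.55, interval -4.71 to -1.14). In complex III, Uqcrq and Uqcr11 had values of 0.43 and 0.31, while the large core subunits Uqcrc1 and Uqcrc2 had 0.037 and -0.012. In complex V, the small membrane subunits Atp5k and Usmg5 had 0.46 and 0.43, and the catalytic subunit Atp5b, with 20313 and 26384 counts, had 0.064 (interval 0.038 to 0.091). Between these ends, Cox5b, Cox6a1, Cox7b, Cox6c and Cox6b1 of complex IV were higher by 0.37, 0.28, 0.27, 0.25 and 0.21, Uqcrh and Uqcr10 of complex III by 0.30 and 0.25, and Atp5e, Atp5g3 and Atp5l of complex V by 0.29, 0.28 and 0.25, all with intervals above 0. Cox7c and Atp5f1 did not pass, with 0.13 and 0.072. Of the remaining rows past the threshold, Cox7a1 (0.68, 20 and 40 counts) and Cox4i2 (-0.45, 32 and 29 counts) had intervals that held 0.

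**Figure D3:**
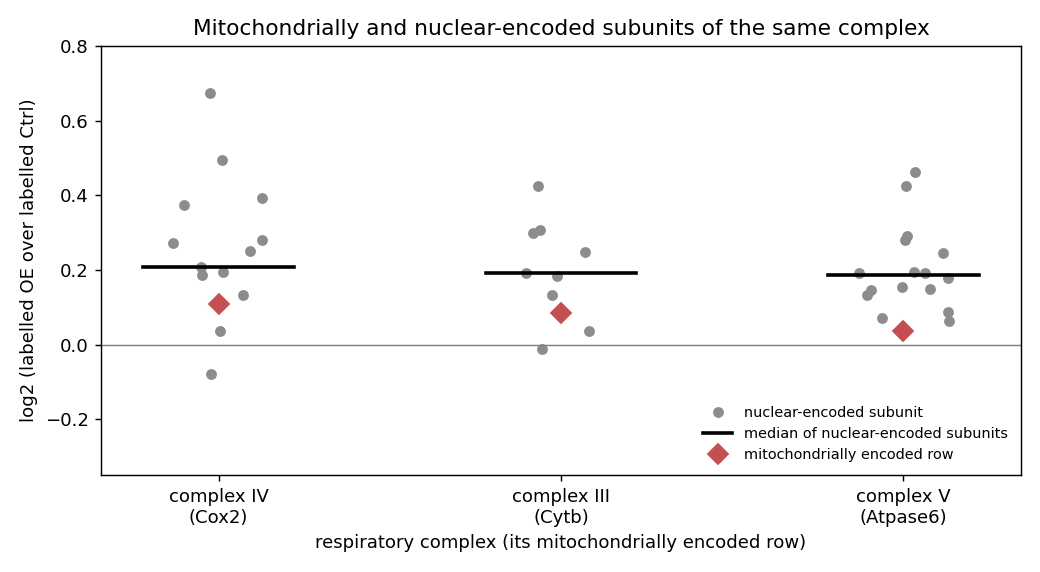
Log2 difference (library labelled OE over library labelled Ctrl) of nuclear-encoded subunits (grey points), their median (black line) and the mitochondrially encoded row of the same complex (red diamond). The red diamond lies under the black line in all 3 complexes, with differences from -0.100 to -0.150, and Cox4i2 and Cox6a2 of complex IV lie outside the axis.

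Transcript length moved with these values. Over 13395 tested genes with a GENCODE length, the median log2 difference was 0.15 for the 538 genes whose longest coding transcript is under 1 kb, 0.058 for 2430 genes of 1 to 2 kb, 0.004 for 5510 genes of 2 to 4 kb and -0.029 for 4917 genes over 4 kb. The share past log2 0.2 on the higher side was 39.2%, 22.9%, 16.6% and 11% in the same order. Of the nuclear-encoded subunits, 14 of complex IV, 4 of complex III and 9 of complex V are under 1 kb. Their medians were 0.20, 0.27 and 0.19, with 9, 3 and 7 of them above the median of 0.15 for all genes of that length. The part of length in the difference between the genomes was not tested. Against genes of their own length class, Cox2 and Atpase6, at 684 and 681 bases, differed from the class median by -0.039 and -0.113, and Cytb, at 1144 bases, was 0.027 above it. Among the nuclear regulators, whose transcripts run from 2449 to 7837 bases, Ppargc1b, Ppargc1a, Tfb2m and Tfam were above their class medians by 0.18, 0.15, 0.13 and 0.094, Polrmt was 0.009 above, and Polg and Nrf1 differed by -0.036 and -0.067.

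The 7 regulators belong to larger groups, described here by 73 other genes of mitochondrial DNA transcription, replication, RNA processing, translation and biogenesis control. Past log2 0.2, 15 of these (20.5%) were higher in the library labelled OE and 3 (4.11%) were lower, beside 17.9% and 16.6% of all genes, and their median was 0.054. With an interval that also excluded 0, 6 (8.22%) were higher and 2 (2.74%) lower, beside 9.9% and 9.16%. On the higher side these shares are near those of all genes. With total counts as the scaling, 10 were higher and 4 lower, beside 16.6% and 18% of all genes.

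For transcription, no gene past the threshold had an interval that excluded 0. The list of 10 genes, 3 of them members, had 3 higher (30%) and 1 lower (10%), beside 17.9% and 16.6% of all genes. Its highest values among genes with at least 100 counts were those of Mterfd3 (also called Mterf2), a relative of the termination factor, with 286 and 414 counts (0.22, interval -0.001 to 0.44), and Tfb1m, the rRNA methyltransferase related to Tfb2m, with 88 and 127 counts (0.21, interval -0.19 to 0.62). Mterfd1 (Mterf3), with 0.21, and Mterf1a, the termination factor itself with 53.31 and 56.39 counts and -0.23, also passed the threshold. Mterfd2 (also called Mterf4), needed to assemble the mitochondrial ribosome, did not pass, with 253 and 282 counts (-0.16, interval -0.41 to 0.094).

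For replication and upkeep, 18 genes had 3 higher (16.7%) and 1 lower (5.56%), beside 17.9% and 16.6% of all genes. Suclg1, a subunit of succinyl-CoA ligase whose loss depletes mitochondrial DNA, was higher with 1566 and 2273 counts (0.22, interval 0.13 to 0.32). Lig3, the DNA ligase of mitochondria, was lower with 714 and 758 counts (-0.23, interval -0.38 to -0.077). Mgme1, an exonuclease that trims replication ends, had the highest value, 0.28, but its interval from -0.036 to 0.61 held 0, as did that of Polg2, the accessory subunit of the polymerase, with 46 and 68 counts (0.25). Rnaseh1, which removes RNA primers, had -0.074 (interval -0.40 to 0.26).

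For RNA processing and stability, 19 genes had 4 higher (21.1%) and 1 lower (5.26%), beside 17.9% and 16.6% of all genes. The partners LRPPRC and SLIRP, which bind and stabilize mitochondrial mRNAs, were both higher: Lrpprc had 1734 and 2500 counts (0.21, interval 0.13 to 0.30) and Slirp 363 and 585 (0.38, interval 0.18 to 0.57). Fastkd5, which helps to cut precursor RNA at sites without a tRNA, was higher with 172 and 269.14 counts (0.33, interval 0.051 to 0.62). Supv3l1, a helicase that unwinds RNA for decay, had 0.21 with an interval from -0.002. Mtpap, the enzyme that adds poly(A) tails to mitochondrial mRNAs, was lower with 464 and 501 counts (-0.20, interval -0.39 to -0.017). Fastkd2, an RNA-binding protein of the mitochondrial ribosome, had -0.20 as well (interval -0.38 to -0.016), just inside the threshold. Since the libraries were made from polyadenylated RNA, the counts of Cox2, Cytb and Atpase6 depend on the tails that Mtpap adds, and no measure of tail length was analysed here.

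For translation, 11 factors had 2 higher (18.2%) and 0 lower, beside 17.9% and 16.6% of all genes. No factor past the threshold had an interval that excluded 0. Tsfm, the exchange factor of the elongation factor Tufm, had 167 and 248 counts (0.26, interval -0.032 to 0.55), and the release factor Mtrf1 had 0.20 (interval -0.18 to 0.60). The initiation factors Mtif2 and Mtif3 were lowest, with -0.052 and -0.047.

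For biogenesis control, 22 genes had 3 higher (13.6%) and 0 lower, beside 17.9% and 16.6% of all genes. The median of the list was -0.032, below that of all genes. Esrrg, an orphan nuclear receptor that works with PGC-1α, was higher with 1589 and 2452 counts (0.31, interval 0.22 to 0.41), and Pprc1, the third coactivator of the PGC-1 family, was higher with 364 and 545 counts (0.27, interval 0.075 to 0.46). Pparg, a nuclear receptor partnered by PGC-1α, was past the threshold on 13 and 22 counts (0.43, interval -0.61 to 1.56). All 3 PGC-1 family genes thus had values above 0, and only Pprc1 passed the threshold. Gabpb1, a subunit of GABP, had -0.17 (interval -0.38 to 0.030) and the nuclear receptor Ppard -0.18 (interval -0.38 to 0.029).

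In the assembly of complex IV, the product of Cox2 is inserted into the membrane and given its copper. The list for this step, 17 genes, had 6 higher (35.3%) and 0 lower, beside 17.9% and 16.6% of all genes. With an interval that also excluded 0, 4 (23.5%) were higher, beside 9.9% of all. Transcript lengths in the list ran from 471 to 4798 bases with a median of 1383, and 4 were under 1 kb. Over all genes, 39.2% of those under 1 kb and 22.9% of those of 1 to 2 kb were higher. For 2 to 4 kb and over 4 kb the shares were 16.6% and 11%. The part of length was not tested. The copper chaperones Cox17, with 398 and 604 counts (0.29, interval 0.10 to 0.47), and Sco1, with 148.86 and 244.79 counts (0.40, interval 0.10 to 0.71), were higher, as was Cox14 (0.25, interval 0.068 to 0.43). Lrpprc is on this list too, and Cox18 and Cox20, with 0.24 and 0.27, had intervals that held 0. Cox19 and Surf1 were lowest, with -0.12 and -0.016.

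**Figure D4:**
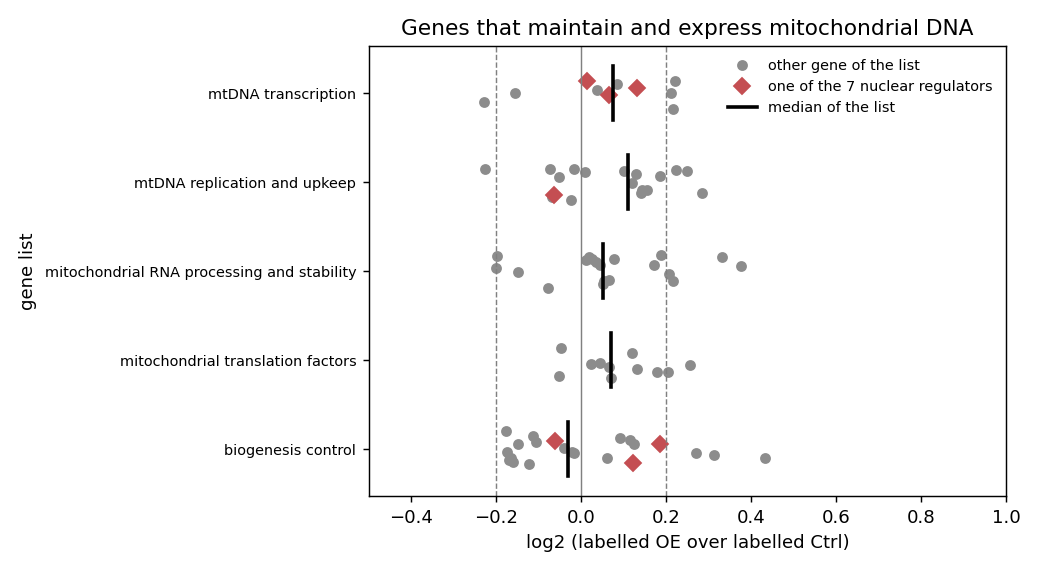
Log2 difference (library labelled OE over library labelled Ctrl) of genes in 5 lists that maintain and express mitochondrial DNA, with the 7 nuclear regulators as red diamonds, other genes as grey points, list medians as black lines and dashed lines at log2 0.2 on either side of 0. Most points and every red diamond lie between the dashed lines, and the 5 medians run from -0.032 to 0.11.

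The tissue also differed between the libraries in its cell type markers, and the samples are bulk ventral midbrain although their labels give DA neurons as the cell type. All 10 DA neuron markers were higher where the label is OE, with a median of 1.24 and a summed level of 27331 normalized counts in the library labelled Ctrl against 63441 in that labelled OE. All 6 thalamus markers were lower, with values from -2.85 to -0.228, a median of -2.03 and sums of 14100 and 7947. Oligodendrocyte markers were lower past the threshold for 4 of 6, with a median of -0.32 and sums of 362735 and 303491, and microglia markers for 3 of 6, with a median of -0.24 and sums of 3849 and 2912. Astrocyte and general neuron markers had medians of -0.11 and 0.17, with sums of 58153 and 52689 and of 93325 and 103324. Of 5 choroid plexus markers, 4 were tested, with 1 higher and 2 lower, a median of -0.54 and sums of 788 and 328. No marker of these lists was at 0 in either library. In bulk tissue, fewer cells of a type and less RNA per cell cannot be told apart, and the part of tissue makeup in the values of the 10 genes was not tested.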

How the data were processed

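RNA of the ventral midbrain was measured in 2 libraries, 1 per group. A company made the libraries from polyadenylated RNA, sequenced 50 bp from both ends and processed the reads. Values the authors deposited are expected counts, estimated reads per gene from RSEM, for 31252 rows without scaling between libraries. The submitters' processing notes name mm10, and the aligner, RSEM version and annotation are not given in the sources used here. Of the values, 95.4% are whole numbers. Counts were rounded for intervals only. Libraries were assigned by the number shared between column and sample label, and Nr2f2 goes against the labels. Genes with near-identical copies are less certain.

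Scaling used TMM (edgeR 4.0.16 in R 4.3.3), a pseudocount of 0.5 normalized counts and a mean of at least 10 counts, which left 15246 genes. Intervals are 95% Clopper-Pearson (scipy 1.17.1), or Woolf for ratios of 2 rows. There was no test. Other scalings tried were total counts, with and without the 3 mitochondrially encoded rows, the upper quartile of genes with a count, and size factors from DESeq2 1.42.0. Further alternatives were a pseudocount of 5, other count minimums and thresholds, and other denominators. Lengths and positions came from GENCODE M21, with the longest coding transcript per symbol, and nuclear copies were aligned without gaps. Cox2, Cytb and Atpase6 were matched to mt-Co2, mt-Cytb and mt-Atp6. Of the 7 nuclear regulators, all but Ppargc1b had a start region in the RefSeq table, and none was looked up for the mitochondrially encoded rows. The intervals were tried on counts simulated with counting error only. That trial says nothing on differences between animals or dissections, or on how reads were placed.

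The members and lists were chosen with earlier results of these data known. Named genes are all members, Nr2f2, and from each list the 2 highest and 2 lowest values among genes averaging 100 or more counts, plus every gene past the threshold whose interval excludes 0. No gene was ranked by likeness, since 2 libraries give 1 ratio per gene. Ptgs2, Gm10222 and the pseudogenes were named after their values or sequences were seen, as were other genes past the threshold whose interval held 0.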

Additional observations from a re-analysis of the deposited data

How the results depend on the processing

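No paired analysis was possible because there is only 1 library of each label, and none can be left out. The count of members past log2 0.2, 0 in each direction, stayed 0 under the other 4 scalings and the other pseudocount, although Ppargc1b came to 0.20, still not past the threshold, with the upper quartile. The stricter thresholds and the other count minimums could not have raised it. Over the scalings and pseudocounts, Cox2 ranged from 0.094 to 0.12, Cytb from 0.069 to 0.098 and Atpase6 from 0.020 to 0.049, which moved them by more than their counting intervals but left them above 0. Polrmt ranged from -0.002 to 0.027, so its sign depends on the scaling, and no other member changed sign. Nr2f2 ranged from -1.08 to -1.06. Of the 73 other genes of the pathway, 15 higher and 3 lower became 0 and 0 at log2 0.5, and 6 were higher where the interval had to exclude 0, since fewer genes can pass by construction. The difference in the share held by the 3 mitochondrially encoded rows, 0.162 percentage points, became 0.192 with Gm10222 added, an alternative chosen after seeing the data. Depth limits the nuclear regulators most: with 82 and 116 counts, Ppargc1b has an interval from -0.23 to 0.61.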
